A study of Mus musculus with 12 samples.

Results

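Intact corneas labelled null for Apoe (ApoeKO) were compared with intact wild-type (WT) corneas, on 2 Affymetrix arrays each. The 4 arrays were chosen by genotype and treatment in the sample names and are 4 of the 12 arrays of the series. All 4 corneas were of the C57BL/6J strain, were neither sutured nor otherwise treated per the labels, and are described there as biological replicates. No source used here gives the design of the Apoe null allele, or the age, sex or pooling of the mice. The remaining intact arrays entered the fit as well. They are 2 arrays without Dscr1, the older name of Rcan1 (Dscr1KO), and 2 without either gene (double KO). The labels of Dscr1KO replicate 2 name both single genotypes. Because the Apoe signal differed between the ApoeKO arrays, each of them was also read by itself.

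Apoe encodes apolipoprotein E, a secreted protein that carries cholesterol and other lipids and is taken up by cells through receptors of the LDL receptor family. Macrophages secrete it and take up cholesterol in turn, and mice without it accumulate cholesterol-rich lipoproteins in the blood. The cornea is a transparent tissue made of a stratified epithelium, a collagenous stroma kept by keratocytes, and a single-layered endothelium. It normally lacks blood vessels. The lens lies behind it and is filled with crystallins, the soluble proteins that give it its refractive power. Some crystallins, αB-crystallin among them, are also made outside the lens.

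The results turn on crystallins, interferon response genes, and genes of macrophages and matrix. The proximal promoters of the 3 genes that passed the test, all γ-crystallins, are shown first, since these genes moved together. They cover the 130 bases before the gene start in RefSeq (GRCm38.p6), 5′ to 3′ on the strand of the gene. Crygf is at chr1:65926392-65926521 on the plus strand, Crygb at chr1:65082291-65082420 on the minus strand and Crygd at chr1:65063441-65063570 on the minus strand.
Crygf: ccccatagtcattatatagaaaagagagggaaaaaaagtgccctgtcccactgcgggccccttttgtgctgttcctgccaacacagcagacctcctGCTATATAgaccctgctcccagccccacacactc
Crygb: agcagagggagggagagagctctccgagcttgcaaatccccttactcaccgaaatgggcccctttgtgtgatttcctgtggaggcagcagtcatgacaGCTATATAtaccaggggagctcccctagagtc
Crygd: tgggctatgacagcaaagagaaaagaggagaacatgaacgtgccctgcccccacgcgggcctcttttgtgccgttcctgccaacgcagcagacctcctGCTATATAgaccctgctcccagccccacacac
Capitals mark GCTATATA, the longest run that all 3 promoters share, which begins 34 bases before the gene start in Crygf and 32 bases before it in the others. Searched on both strands, it is present in 0.502% of the 32851 RefSeq promoters in the table, each running from 250 bases before the gene start to 50 bases after it. Over the 60 bases before this run, Crygf and Crygd are identical at 86.7% of positions, and Crygb is identical to Crygf at 35.0% and to Crygd at 33.3%.

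A second set is shown for the interferon response, because every tested gene of that list read higher on both ApoeKO arrays. These are 120-base stretches of 3 promoters from the same table. Ifit1 is at chr19:34640765-34640884 on the plus strand, Rsad2 at chr12:26456473-26456592 on the minus strand and Ifit3 at chr19:34583353-34583472 on the plus strand.
Ifit1: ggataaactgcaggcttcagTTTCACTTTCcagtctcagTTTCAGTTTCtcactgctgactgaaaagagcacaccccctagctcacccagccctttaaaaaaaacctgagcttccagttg
Rsad2: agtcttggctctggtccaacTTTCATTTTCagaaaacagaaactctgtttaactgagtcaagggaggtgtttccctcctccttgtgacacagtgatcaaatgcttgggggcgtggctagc
Ifit3: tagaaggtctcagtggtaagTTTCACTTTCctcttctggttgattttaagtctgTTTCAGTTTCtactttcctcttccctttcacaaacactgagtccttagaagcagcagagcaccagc
Capitals mark GAAANNGAAA or its reverse complement TTTCNNTTTC, the core letters of the element bound by interferon-activated factors. One or more copies are present in 7 of the 13 tested interferon genes that have a promoter entry, and in 3.44% of all 32851 promoters. The match describes the letters only.

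Intensities are in the authors' units, scaled so that the trimmed mean of each array was 100. Median intensities of the 8 intact arrays lay between 15.6 and 21.1. Differences are log2(intensity + 3.6) of ApoeKO minus WT with the standard error from limma, fitted over the 8 intact arrays and 12711 genes. Adjusted p-values are limma's after Benjamini-Hochberg adjustment over these genes. The number of arrays, 2 a group, limits the precision. The median absolute log2 difference between replicates was 0.16 in WT, 0.16 in ApoeKO, 0.398 in Dscr1KO and 0.302 in double KO. The fit over the 8 intact arrays pools these spreads, so its errors also reflect arrays outside the comparison. The labels call the replicates biological but do not say how many mice each holds, so the p-values measure the spread between these samples. The corneal markers were bright on all 4 arrays. Krt12, the keratin of corneal epithelium, read 7260.9 and 5291.1 in WT and 7884 and 6802.8 in ApoeKO. Kera, the stromal proteoglycan keratocan, read 4992.8 and 3451.6 in WT and 3783.2 and 4069.1 in ApoeKO. The ratios of 3′ to 5′ probe sets of Actb, a measure of RNA quality, were 1.86 and 1.62 in WT and 2.26 and 1.91 in ApoeKO.

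The targeted transcript was read first. Apoe gave 1030.5 and 776.5 in WT, 849.3 in the library labelled ApoeKO replicate 1 and 7.5 in the library labelled ApoeKO replicate 2. The first of these ApoeKO libraries therefore lay within the WT range and the second far below it. Apoc1, the apolipoprotein gene next to Apoe, showed the same order, with 333.9 and 384.7 in WT against 327.8 and 3.5 in ApoeKO. The double KO corneas read 32.5 and 22.7 for Apoe and 16.6 and 12 for Apoc1. Apoe differed between the groups by -3.21 ± 1.68 and Apoc1 by -2.90 ± 1.42, and neither passed the test (limma adjusted p = 1 for both). Without the library labelled ApoeKO replicate 1, Apoc1 differed by -5.67 (adjusted p = 0.00558) and Apoe by -6.34 (adjusted p = 0.0935). No source used here places the probe set of Apoe inside or outside the deleted sequence. Rcan1, the gene of the other knockout, read 630.4 and 649.5 in WT and 668.2 and 581.3 in ApoeKO, a difference of -0.04 ± 0.20.

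Sex-linked transcripts divided the groups completely. Xist, the RNA that silences the inactive X chromosome, read 14.9 and 8.9 in WT and 4622.1 and 4598 in ApoeKO. The Y-linked gene Kdm5d, a histone demethylase gene, read 143.6 and 164.5 in WT and 3.4 and 1.6 in ApoeKO. Both ApoeKO arrays thus carried high Xist and low Y-linked transcripts, and both WT arrays the reverse. The effects of sex and of the Apoe label cannot be told apart in this comparison.

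**Figure D1:**
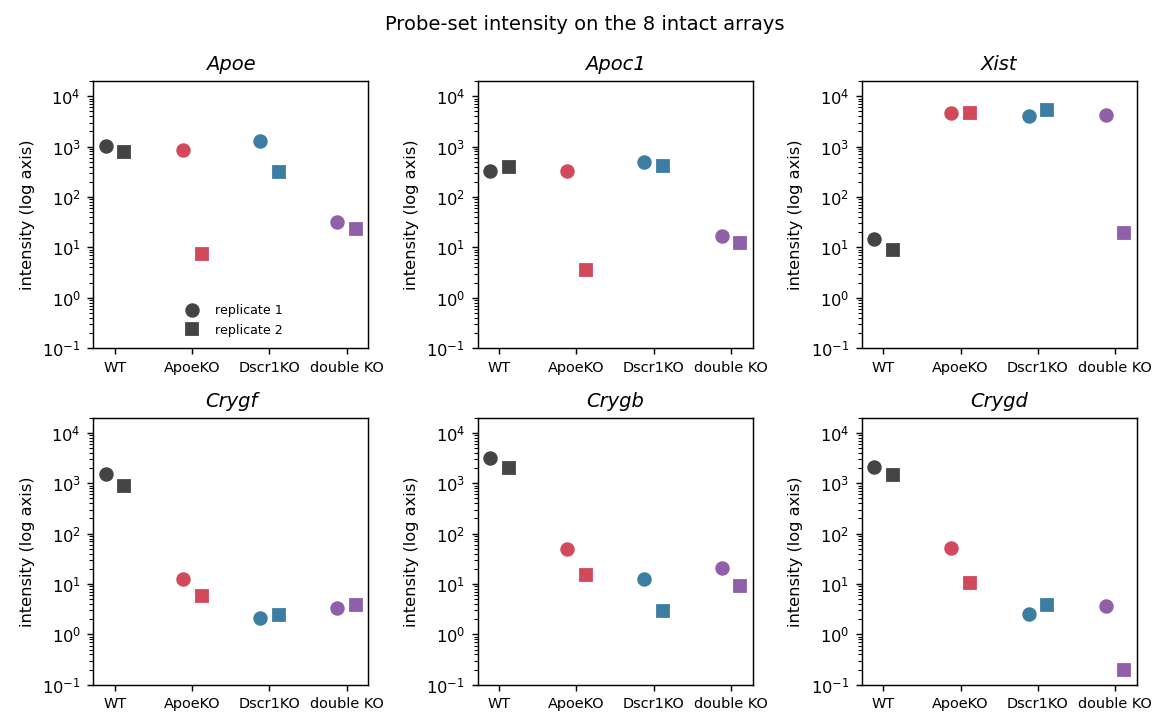
Intensity (log axis) of Apoe, Apoc1, Xist and the 3 called γ-crystallin genes on each of the 8 intact arrays, with circles for replicate 1 and squares for replicate 2 of each genotype. Apoe and Apoc1 are at the WT level in ApoeKO replicate 1 and near the bottom in replicate 2, whereas Xist and the crystallins of both ApoeKO arrays lie apart from both WT arrays.

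In ApoeKO 3 γ-crystallin genes passed the test as lower. No gene passed as higher, and Xist was among those that did not. The 3 genes make 0.0236% of the 12711 genes tested, against 0% called higher. Crygf read 1522.3 and 884.9 in WT and 12.5 and 5.8 in ApoeKO, that is 1204 ± 451 against 9.15 ± 4.74 (SD, n = 2 each). All 3 genes were bright on both WT arrays and dim on both ApoeKO arrays, with no overlap. Crygf fell by 6.57 ± 0.38 on the log2 scale (limma adjusted p = 0.00201). Crygb read 3146.8 and 2043.6 in WT and 50.6 and 14.8 in ApoeKO, and fell by 6.33 ± 0.63 (limma adjusted p = 0.047). Crygd read 2132.3 and 1472.1 in WT and 50.8 and 10.6 in ApoeKO, and fell by 6.00 ± 0.61 (limma adjusted p = 0.047). γ-Crystallins are small structural proteins of the lens fibre. Members of this family are close in sequence, and the probe set used for Crygf is of a type that can cross-hybridise, so the levels of single members are uncertain.

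The calls rested on few arrays. Without WT replicate 1 the count was 0, with Crygf at -6.17 (limma adjusted p = 0.0935), and without WT replicate 2 or without ApoeKO replicate 2 only Crygf was called. Without ApoeKO replicate 1 it was 6 genes, all lower, the additional ones being Apoc1 and the β-crystallin genes Cryba4 and Crybb2. Sex-linked transcripts summed to like values within WT, ApoeKO and Dscr1KO, but to 6240.3 and 2301.2 on the double KO arrays. A term for Xist was therefore set by the double KO arrays alone and cannot separate sex from the Apoe label. With it the differences were of like size or larger, with larger errors, and none of the 3 passed the test. Crygf then differed by -6.44 ± 0.68 (limma adjusted p = 0.0725), Crygb by -7.31 ± 1.08 (limma adjusted p = 0.194) and Crygd by -6.92 ± 1.05 (limma adjusted p = 0.196).

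The same direction held across the lens list. Of its 22 genes, 19 had a probe set and 16 were bright enough to test, and all 16 read lower on both ApoeKO arrays than on both WT arrays. Among all genes tested, 23.7% were lower without overlap. The median difference of the 16 genes was -3.69, beside -0.01 for all genes tested. Since low genes entered the test only through arrays on which they were bright, this count is a description.

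The α-crystallins are small heat shock proteins that act as chaperones. Cryaa read 802.4 and 573.7 in WT and 36.9 and 18.5 in ApoeKO, a difference of -4.51. Cryab, which is also made outside the lens, read 2462.3 and 2111.1 in WT and 1491.4 and 1462.2 in ApoeKO, a difference of -0.62. The ApoeKO arrays were below WT for both, far below for Cryaa and by less than 1 log2 unit for Cryab. The 6 β-crystallin genes, which encode subunits of the lens protein oligomers, differed by between -3.37 (Crybb1) and -4.82 (Cryba1). Cryba1 read 1416 and 1133 in WT and 88 and 18.5 in ApoeKO. Crygs, a further member of the γ family that is expressed in the adult lens, read 2133.7 and 1476.3 in WT and 128.3 and 23.1 in ApoeKO. Again the groups did not overlap for any of them.

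Non-crystallin lens genes differed less than most crystallins. Lim2 and Mip were also far dimmer in WT than the called crystallins, which limits how far they can fall on this scale. Lim2, a lens fibre membrane protein gene, read 167.2 and 133.3 in WT and 37.1 and 6.9 in ApoeKO, and Mip, the lens aquaporin, 46.6 and 50.5 in WT and 21.2 and 1.8 in ApoeKO. The beaded filament genes Bfsp1 and Bfsp2 differed by -2.10 and -0.78. Of the genes too dim to test, Cryga read 172.4 and 71 in WT and 2.2 and 0.3 in ApoeKO, Crygn was lower without overlap as well, and Gja3 overlapped. In all 16 tested genes ApoeKO replicate 2 read below replicate 1, with medians of -4.50 and -3.05 from the WT mean.

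**Figure D2:**
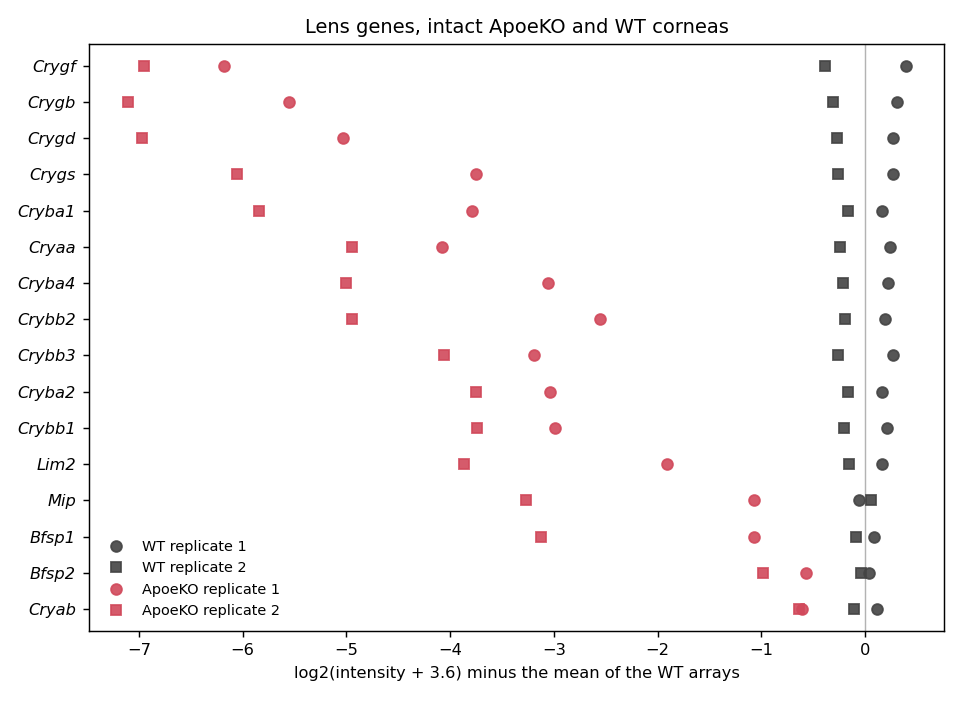
Difference of each array from the mean of the WT arrays in log2(intensity + 3.6) for the 16 tested lens genes, with circles for replicate 1 and squares for replicate 2. Every ApoeKO point lies to the left of the WT points. Crygf, Crygb and Crygd at the top lie 5 units or more below the WT mean, and Bfsp2 and Cryab under 1 unit below it.

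Summed intensity over the lens genes on the array showed which corneas were high. It was 16252 and 11640.3 in WT and 2224 and 1651.9 in ApoeKO. Cryab, which is also made outside the lens, gave most of both ApoeKO sums. Dscr1KO gave 1205.6 and 1368.6, and double KO gave 587.8 and 569.2. Sutured corneas were read on 1 array each. The WT cornea gave 1693.3 on day 5 and 10009.2 on day 7, the Dscr1KO cornea 1504.1 on day 5, and the cornea transgenic for Dscr1 2170.1 on day 7. Thus both intact WT corneas and the sutured WT cornea of day 7 were high, while the sutured WT cornea of day 5 was as low as the ApoeKO corneas. How much lens tissue each dissected sample held was not tested. In whole-tissue RNA, fewer cells of a type and less RNA per cell cannot be told apart.

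The double KO and Dscr1KO corneas differ in the Apoe label too, on arrays separate from the first pair. The labels of Dscr1KO replicate 2 name both single genotypes, so the Apoe genotype on that side of the pair is in doubt. The double KO arrays were unlike each other. Sex-linked transcripts summed to 6240.3 on replicate 1 and 2301.2 on replicate 2, and retinal genes to 5589 and 96. Both Dscr1KO arrays had high sex-linked sums, 6150.7 and 7077.1. Over the 16 tested lens genes the median difference of double KO from Dscr1KO was -0.91. Of these genes, 12 were lower and 1 higher without overlap (all genes 16.1% and 16.4%). Crygf gave 2.1 and 2.4 for Dscr1KO, against 3.3 and 3.9 for double KO, a difference of 0.30 ± 0.38. The difference between the 2 contrasts was -6.86 ± 0.54 for Crygf (limma adjusted p = 0.0199), the only gene of 12711 to pass that test, or 0.00787%. At an unadjusted p under 0.05 it was 964 genes. The Crygf readings of the second pair are near the pseudocount of 3.6, so a fall of that size could not have been seen there. The interaction call ended when any 1 of the WT or ApoeKO arrays was left out, and was 0 in each case.

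Interferon response genes read higher on both ApoeKO arrays, and none passed the test. Type I interferons induce these genes through a cascade of transcription factors, and many of their products restrict viruses. Of 20 genes in the list, 17 had a probe set and 16 were tested. All 16 were higher on both ApoeKO arrays than on both WT arrays, against 21.1% of all genes tested. Their median difference was 0.90, with 0.70 on ApoeKO replicate 1 and 1.10 on replicate 2. When limma was fitted to the 4 arrays alone, 9 of the 16 passed the test as higher, beside 0.842% of all genes. At an unadjusted p under 0.05 in the 8-array fit it was 7 genes.

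Usp18, a protease that removes ISG15 from proteins and limits interferon signalling, read 45.2 and 35.3 in WT and 172.9 and 269.3 in ApoeKO. It differed by 2.33 ± 0.45 (limma adjusted p = 0.347 over 8 arrays and 0.00256 over the 4 arrays alone). Oas2, a sensor of double-stranded RNA, read 22.3 and 7.8 in WT and 69.8 and 133.3 in ApoeKO, a difference of 2.54 ± 0.62 (limma adjusted p = 0.603). For both genes the lower ApoeKO array was about 3-fold or more above the higher WT array, and the 2 groups stood well apart.

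Among the genes with printed promoters, Ifit1, which binds viral RNA, read 107.6 and 97.3 in WT and 304.2 and 531.6 in ApoeKO. Rsad2, the antiviral enzyme viperin, read 19 and 20.6 in WT and 89.6 and 196.6 in ApoeKO. Ifit3, a partner of Ifit1, read 196.5 and 184.7 in WT and 343.3 and 488.6 in ApoeKO. Replicate 2 was the higher ApoeKO array for all 3 genes, as for 13 of the 16.

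The transcription factors of the pathway differed less. Irf9, a DNA-binding factor activated by interferon signalling, read 100.4 and 105.9 in WT and 197 and 237.9 in ApoeKO, a difference of 1.04. Irf7, which amplifies interferon production, differed by 0.69, Stat2 by 0.45 and Irf1 by 0.14. Irf1 read 1314.9 and 1166.2 in WT and 1348.5 and 1391.1 in ApoeKO, so its groups were only just apart. Ifi27l2a, an interferon-induced gene outside the list, read 71.2 and 34 in WT and 201.3 and 588.5 in ApoeKO.

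**Figure D3:**
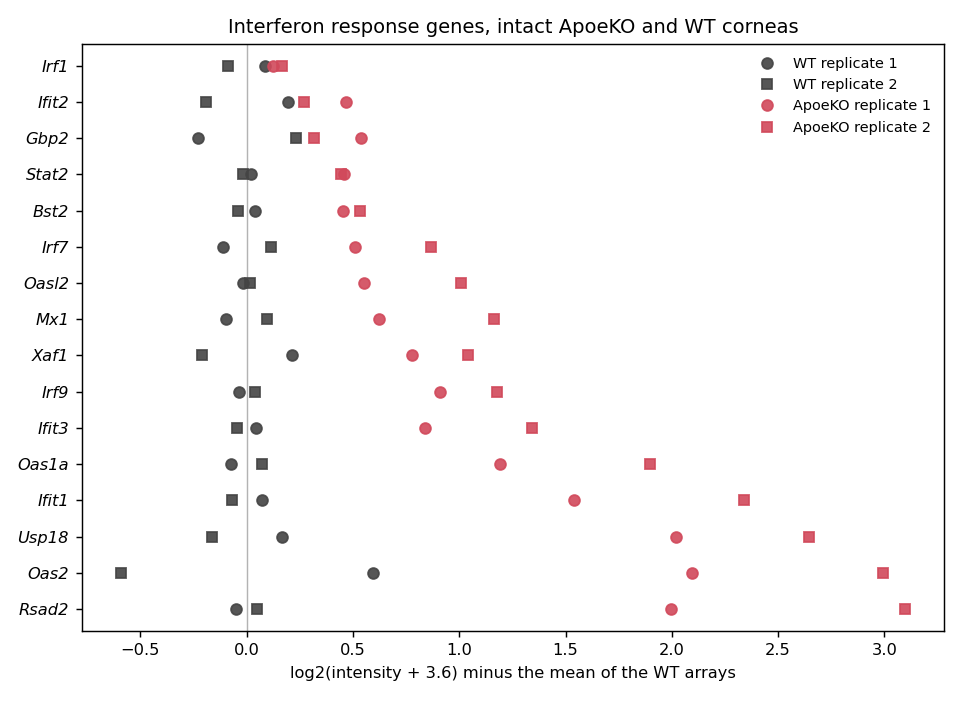
Difference of each array from the mean of the WT arrays in log2(intensity + 3.6) for the 16 tested interferon response genes, with circles for replicate 1 and squares for replicate 2. All ApoeKO points lie to the right of the WT points, from under 0.5 units for Irf1 to about 2 and 3 units for Rsad2.

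Between double KO and Dscr1KO the same 16 genes had a median difference of -0.25, and none was apart without overlap in either direction, against 16.4% higher and 16.1% lower among all genes. Within each of those groups the arrays were far apart. Rsad2, for example, gave 188.9 and 35.5 for the Dscr1KO arrays, and 65.8 and 141.7 for the double KO arrays. The difference between the contrasts did not pass the test for Usp18 (limma adjusted p = 0.547) or Oas2 (limma adjusted p = 0.572).

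The genes with the lowest p after the crystallins were both higher in ApoeKO and did not pass. Il33, an alarmin cytokine stored in the nuclei of epithelial cells, read 43 and 36.2 in WT and 170.3 and 168.4 in ApoeKO, a difference of 2.01 ± 0.23 (limma adjusted p = 0.0862). Casp1, the protease that activates interleukin-1β in the inflammasome, read 6.1 and 1.1 in WT and 43 and 72.7 in ApoeKO, a difference of 3.14 ± 0.40 (limma adjusted p = 0.109). The replicates of Il33 were close together in both groups. When double KO replicate 1 was left out of the fit, the difference of Il33 stayed at 2.01 and was called. So were those of the sex-linked genes Xist, Kdm5d, Uty and Eif2s3y. That fit leaves 1 double KO array. At an unadjusted p under 0.05, 262 genes were higher (2.06%) and 215 lower (1.69%). With the 4 arrays alone, 107 genes were called higher and 96 lower (0.755%), including the 3 crystallins.

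Macrophage genes read higher, most on ApoeKO replicate 1. Of 20 genes, all tested, 14 were higher without overlap and 1 lower, beside 21.1% and 23.7% of all genes tested, with a median difference of 0.88. The median was 1.25 on ApoeKO replicate 1 and 0.38 on replicate 2, and 18 of the 20 genes read higher on replicate 1 than on replicate 2. None passed over 8 arrays. At an unadjusted p under 0.05, 6 were higher (2.06% of all genes), and 4 passed as higher with the 4 arrays alone (0.842% of all genes). The summed intensity of the list was 895.3 and 801.7 in WT, 4388.4 in ApoeKO replicate 1 and 1715.8 in replicate 2.

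Lyz1, a lysozyme gene, read 270.8 and 213.4 in WT and 2222.2 and 734.3 in ApoeKO. Its difference was 2.39 ± 0.52 (limma adjusted p = 0.474), and it gave a large part of the summed intensity on both ApoeKO arrays. Mpeg1, which encodes the pore-forming protein perforin-2 of phagocytes, read 18.8 and 19.4 in WT and 121.9 and 69.5 in ApoeKO, a difference of 2.08 ± 0.57 (limma adjusted p = 0.738). Csf1r, the receptor that macrophages need to survive, read 147.5 and 127 in WT and 326 and 158.5 in ApoeKO. These genes were above WT on both ApoeKO arrays, and further above it on replicate 1. Adgre1, the F4/80 antigen, read 13.9 and 30.8 in WT and 54.3 and 31.9 in ApoeKO, where replicate 2 was barely above WT.

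Complement genes partly overlap that list. Of 14 tested, 8 were higher without overlap and 1 lower (all genes 21.1% and 23.7%), with a median difference of 0.58. C1qa, a subunit of the first complement component that macrophages make, read 35.9 and 28.4 in WT and 106.7 and 66.6 in ApoeKO (1.31 ± 0.42, limma adjusted p = 0.959). C2, which joins the convertase of the classical pathway, read 21.6 and 23.2 in WT and 50.9 and 34.1 in ApoeKO. The higher array was again replicate 1, as in 12 of the 14 genes. The part of macrophages in the complement and cytokine values was not tested.

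Neutrophil and antigen-presentation genes differed less. Of 11 neutrophil genes tested, 4 were higher without overlap and 0 lower (all genes 21.1% and 23.7%), with a median difference of 0.38. Csf3r, the receptor for the growth factor G-CSF, read 3 and 9.2 in WT and 20.2 and 20.9 in ApoeKO, and Mmp9, gelatinase B, read 9.4 and 7.6 in WT and 21.4 and 10.7 in ApoeKO. Of 8 genes of dendritic cells and MHC class II tested, 6 were higher without overlap and 0 lower, against the same shares, with a median of 0.49. H2-Aa, an MHC class II chain gene, read 129.5 and 81 in WT and 218.8 and 203.6 in ApoeKO, and its partner H2-Ab1 read 37.6 and 19.5 in WT and 60.7 and 51.2 in ApoeKO. The ApoeKO readings of both chains were close to each other and above WT.

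Cytokine and chemokine genes were divided. Of 23 tested, 8 were higher without overlap and 3 lower (all genes 21.1% and 23.7%), with a median of 0.38. That median was 0.61 on ApoeKO replicate 1 and 0.03 on replicate 2, and 20 of the 23 genes read higher on replicate 1. Icam1, the adhesion molecule that leukocytes bind, read 24.5 and 21.1 in WT and 64 and 44.8 in ApoeKO (1.12 ± 0.24, limma adjusted p = 0.474). Il6 and Cxcl10 stayed under 5 intensity units on all 4 arrays.

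The ApoeKO arrays were then set against each other. Of the 12711 genes, 377 were at least 2-fold apart between them (2.97%), compared with 214 between the WT arrays (1.68%). Replicate 1 was the higher in 283 of these (2.23%) and replicate 2 in 94 (0.74%). Read by itself against the WT mean, replicate 1 had 301 genes at least 2-fold above (2.37%) and 156 below (1.23%), and replicate 2 had 176 above (1.38%) and 209 below (1.64%). Both arrays were at least 2-fold above in 105 genes (0.826%) and below in 66 (0.519%). A single array has no spread of its own, so these counts have no test.

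After Apoe and Apoc1, the genes furthest above on replicate 1 were an acute-phase gene and matrix metalloproteinase genes. Saa3, an acute-phase serum amyloid gene, read 3.9 and 7.2 in WT and 2300.5 and 45.9 in ApoeKO. Mmp3, stromelysin-1, read 94 and 12.2 in WT and 767.7 and 21.4 in ApoeKO. Saa3 was above WT on both ApoeKO arrays, and Mmp3 on replicate 1 only. Mmp12, the elastase of macrophages, read 4 and 1.3 in WT and 154.9 and 6.2 in ApoeKO, and Mmp13, a collagenase gene, 4.5 and 1.2 in WT and 182.6 and 10.5 in ApoeKO.

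Lipid and epithelial genes complete that end of the order. Lpl, lipoprotein lipase, read 16.1 and 18.7 in WT and 192.9 and 18.2 in ApoeKO. Lgals7, galectin-7 of stratified epithelia, read 321.1 and 331.7 in WT and 497.3 and 54.4 in ApoeKO. Replicate 2 was at the WT level for Lpl and below it for Lgals7. At the other end, Ctse, the protease cathepsin E, read 25 and 42.7 in WT and 30 and 117.9 in ApoeKO, and Pdyn, prodynorphin, 48.7 and 63.7 in WT and 37.6 and 141.2 in ApoeKO. Here replicate 1 was within or near the WT range and replicate 2 above it. Asns, asparagine synthetase, and Olfm4, a secreted glycoprotein gene, were low on replicate 1 instead, with 51.5 against 156.9 and 7.5 against 34. Tmem254a, Acap3 and Zfp846 followed the same order.

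**Figure D4:**
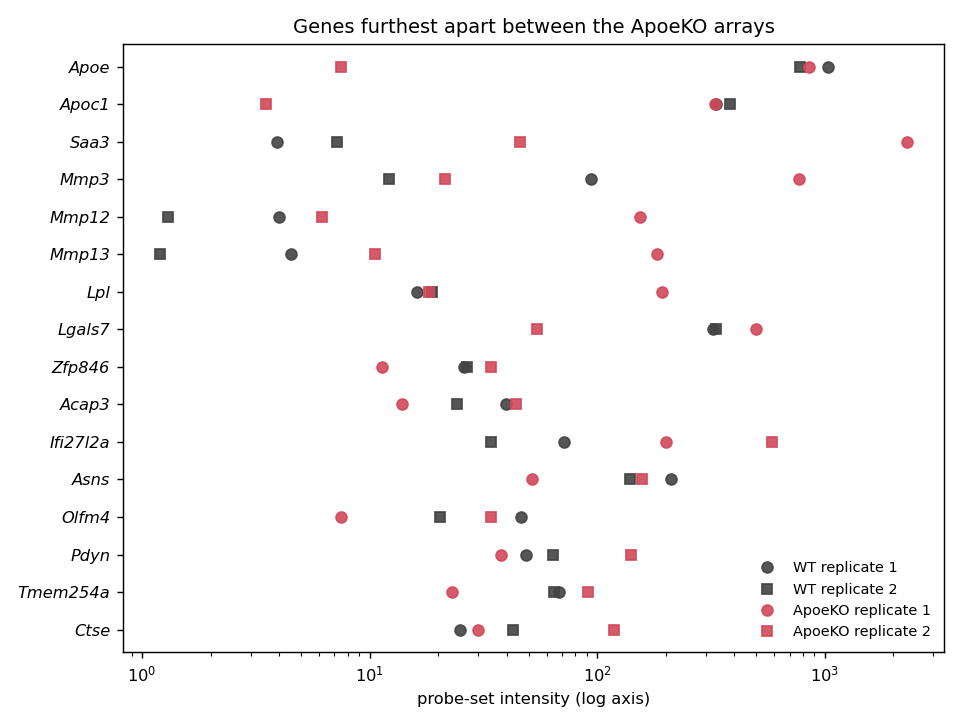
Intensity (log axis) of the 16 genes furthest apart between the ApoeKO arrays, with circles for replicate 1 and squares for replicate 2 and WT arrays in grey. For Apoe and Apoc1 replicate 1 lies among the WT arrays, whereas for Saa3, Mmp12 and Mmp13 both ApoeKO arrays lie above them, replicate 1 furthest.

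Stromal genes tended to read lower, some of them on both arrays. Of 16 keratocyte and stroma genes, all tested, 9 were lower without overlap and 2 higher, beside 23.7% and 21.1% of all genes tested, with a median of -0.33. None passed over 8 arrays. At an unadjusted p under 0.05, 6 were lower (1.69% of all genes), and 3 passed as lower with the 4 arrays alone (0.755% of all genes). Among the lower genes were collagen genes and the proteoglycan gene Fmod. Col1a1, a chain of type I collagen, read 912.4 and 698.4 in WT and 298.6 and 180.1 in ApoeKO (-1.77 ± 0.37, limma adjusted p = 0.432). Col6a1, a chain of the microfibrillar type VI collagen, read 1706.5 and 1155 in WT and 723.6 and 569.6 in ApoeKO (-1.12 ± 0.22, limma adjusted p = 0.347). Fmod, fibromodulin, which regulates collagen fibril assembly, read 1127.4 and 631.5 in WT and 274.8 and 246.6 in ApoeKO. In all 3 genes both ApoeKO arrays were below both WT arrays.

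Several proteoglycan genes did not separate. Kera, Lum, Dcn and Ogn, proteoglycans that space the collagen fibrils, overlapped between the groups. Lum, lumican, read 4455.7 and 2335.8 in WT and 2848.2 and 2759.6 in ApoeKO, which lay between the WT arrays. Col1a2, the other chain of type I collagen, read 6156.9 and 4757.3 in WT and 4407.3 and 4372.5 in ApoeKO, a difference of -0.30 with no overlap. WT replicate 1 was the brighter WT array for most of these genes, and the summed intensity of the list was 36362.1 and 25122.6 in WT and 24312.5 and 23165.2 in ApoeKO.

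**Figure D5:**
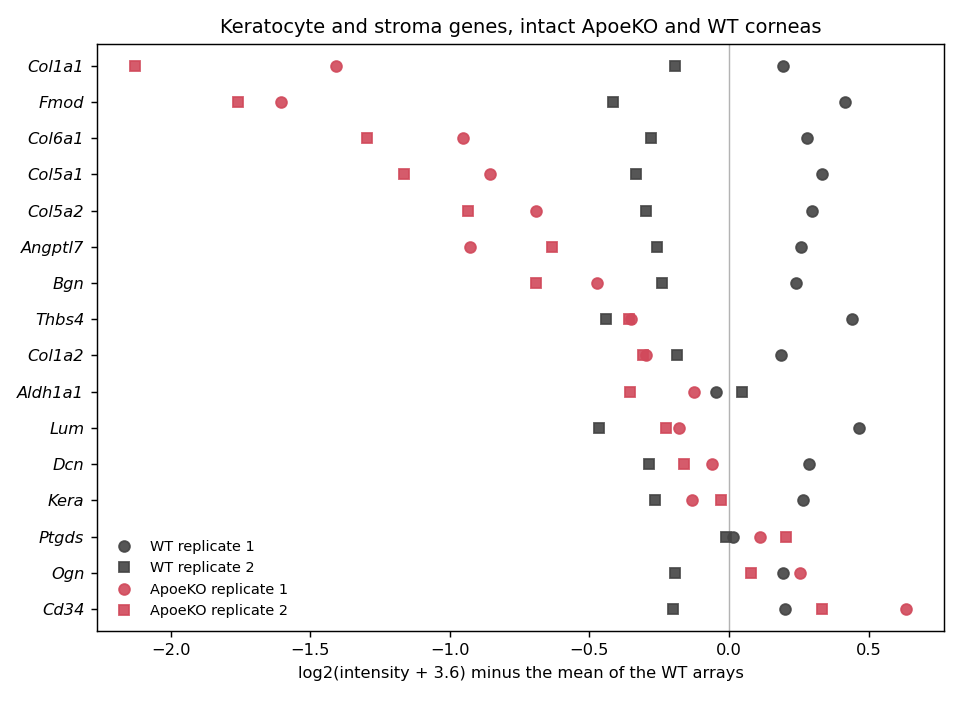
Difference of each array from the mean of the WT arrays in log2(intensity + 3.6) for the 16 keratocyte and stroma genes, with circles for replicate 1 and squares for replicate 2. Col1a1 and Fmod lie 1.4 units or more below the WT mean on both ApoeKO arrays, whereas Kera, Dcn and Lum lie between the WT arrays.

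The wider matrix list had 26 genes tested, of which 12 were lower without overlap and 3 higher (all genes 23.7% and 21.1%), with a median of -0.28. Sparc, osteonectin, a collagen-binding matrix protein, read 4343.6 and 2839.4 in WT and 1329.1 and 1009.6 in ApoeKO (-1.60 ± 0.24, limma adjusted p = 0.158 over 8 arrays and 0.0107 over the 4 alone). Col4a1, a basement membrane collagen, read 421 and 325.5 in WT and 179.2 and 167.6 in ApoeKO (-1.08 ± 0.27, limma adjusted p = 0.623). Fn1, fibronectin, and Col17a1, the collagen that anchors epithelial cells, overlapped, with differences of 0.01 and 0.08. Between double KO and Dscr1KO the list had a median of 0.42, with 11 genes higher and 0 lower without overlap (all genes 16.4% and 16.1%).

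Corneal epithelial genes read slightly higher. Of 19 genes, all tested, 13 were higher without overlap and 0 lower (all genes 21.1% and 23.7%), with a median of 0.21. Krt14, a keratin of basal cells, read 958.1 and 761.1 in WT and 2615.9 and 1532.9 in ApoeKO (1.23 ± 0.36, limma adjusted p = 0.818). Krt15, another basal keratin that marks limbal progenitors, read 2331.4 and 1596.3 in WT and 2806 and 3726.5 in ApoeKO. Pax6 and Trp63, the transcription factors of corneal identity and of stratified epithelium, differed by 0.14 and 0.04. The summed intensity was 80679.7 and 66232 in WT and 89336.7 and 84249.4 in ApoeKO. Double KO against Dscr1KO went the other way, with a median of -0.31 and 0 genes higher and 8 lower without overlap (all genes 16.4% and 16.1%).

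Other cell types of the eye surface were compared in the same way. Of 12 conjunctival and goblet cell genes tested, 5 were higher without overlap and 2 lower (all genes 21.1% and 23.7%), with a median of -0.08. Krt13, a keratin of conjunctival epithelium, read 1269 and 1311.5 in WT and 2115.4 and 2630.3 in ApoeKO, and Krt8, a keratin of simple epithelia, 32.3 and 25.1 in WT and 134.1 and 140.1 in ApoeKO. Both were well above WT, whereas the goblet cell mucin gene Muc5ac stayed at 7.5 or less on all 4 arrays. Of 16 genes of cornified epithelium, 6 were higher without overlap and 1 lower, against the same shares, with a median of 0.31. Its members of lowest p were a dim gene and the 1 that was lower. Ivl, involucrin of the cornified envelope, read 130.8 and 99.4 in WT and 80.8 and 77.4 in ApoeKO, and Sprr2f, another envelope protein gene, stayed at 8.9 or less.

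Corneal endothelial genes read lower more often than higher. Of 10 tested, 6 were lower without overlap and 1 higher (all genes 23.7% and 21.1%), with a median of -0.33. Col8a2, a collagen of the basement membrane beneath that layer, read 2566.3 and 1999.5 in WT and 1337.6 and 1414.3 in ApoeKO, and Car2, carbonic anhydrase II, 16.4 and 6.1 in WT and 4.3 and 3.8 in ApoeKO. Both were lower on the ApoeKO arrays, Car2 close to the bottom of the scale in both groups. Of 19 blood endothelial genes tested, 3 were higher without overlap and 2 lower, shares below those of all genes, and their summed intensity was 310.1 and 259.4 in WT and 263.4 and 256.2 in ApoeKO. Vwf, von Willebrand factor, read 6 and 2.1 in WT and 0.4 and 1.7 in ApoeKO, and Ecscr, an endothelial surface protein gene, 12 and 9.4 in WT and 19 and 14.5 in ApoeKO. Retinal genes summed to 495.9 in WT replicate 1 and to between 96.6 and 110.1 on the other arrays of the comparison.

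Lipid genes were the group closest to the function of Apoe, and none of them passed the test. Cells sense cholesterol through SREBP factors, which induce its synthesis when it is scarce, and through LXR factors, which induce its export when it is abundant. Of 17 cholesterol synthesis genes tested, 10 were higher without overlap and 1 lower (all genes 21.1% and 23.7%), with a median of 0.20. Cyp51, lanosterol demethylase, read 660.1 and 630.3 in WT and 903.9 and 924.2 in ApoeKO (0.50 ± 0.27, limma adjusted p = 1, and 0.0429 over the 4 arrays alone). Nsdhl, a later enzyme of the same pathway, read 666.5 and 598.8 in WT and 767.5 and 836 in ApoeKO. The ApoeKO arrays were above WT for both, by less than 1 log2 unit. The median of the list was 0.20 on ApoeKO replicate 1 and 0.21 on replicate 2. In the second pair, double KO against Dscr1KO, it was -0.38, with 1 gene higher and 9 lower without overlap (all genes 16.4% and 16.1%).

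Of 19 SREBP control and fatty acid synthesis genes tested, 11 were higher without overlap and 2 lower (all genes 21.1% and 23.7%), with a median of 0.19. Scd1, the desaturase that makes monounsaturated fatty acids, read 536.4 and 486.9 in WT and 885.2 and 893.9 in ApoeKO (0.80 ± 0.15, limma adjusted p = 0.328 over 8 arrays and 0.00893 over the 4 alone). Acss2, which makes acetyl-CoA from acetate, read 453.7 and 508.3 in WT and 780.3 and 654.5 in ApoeKO. The regulators themselves, Srebf1 and Srebf2, overlapped, with differences of 0.04 and 0.02. The median of the list was 0.13 on ApoeKO replicate 1 and 0.17 on replicate 2. For double KO against Dscr1KO it was -0.15, with 1 gene higher and 7 lower without overlap (all genes 16.4% and 16.1%).

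Of 17 cholesterol efflux and LXR genes tested, 5 were higher without overlap and 2 lower, near the 21.1% higher among all genes and below the 23.7% lower, with a median of 0.14. Pltp, the phospholipid transfer protein, read 114.1 and 109.6 in WT and 298.6 and 206.6 in ApoeKO (1.13 ± 0.37, limma adjusted p = 0.96). Cyp7b1, an oxysterol hydroxylase, read 19.2 and 14.5 in WT and 40.7 and 41.9 in ApoeKO (1.14 ± 0.25, limma adjusted p = 0.474). Both were above WT on each ApoeKO array, though the exporter genes Abca1 and Abcg1 overlapped, with differences of 0.36 and 0.05.

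Of 6 apolipoprotein genes tested, 1 was higher without overlap and 2 lower (all genes 21.1% and 23.7%), with a median of -0.31. The higher one was Clu, clusterin, at 2303.7 and 1913.3 in WT and 3457.2 and 2540.3 in ApoeKO. Apod differed by less than 0.01. Among 16 lipoprotein receptor and lipid uptake genes tested, 6 were higher without overlap and 2 lower (all genes 21.1% and 23.7%), with a median of 0.09. Fabp5, the epidermal fatty acid binding protein, read 5542.6 and 4312 in WT and 8846.1 and 7347.9 in ApoeKO (0.72 ± 0.27, limma adjusted p = 1). Plin3, a lipid droplet coat protein gene, read 345.7 and 334.1 in WT and 270 and 208.2 in ApoeKO. Cd36, a scavenger receptor that takes up oxidised lipoproteins, read 0.5 and 2.9 in WT and 42.1 and 6.9 in ApoeKO, the higher value again on replicate 1. Of the receptors that bind Apoe, Lrp1, Vldlr and Sorl1 overlapped between the groups, and Lrp8 was dim, at 8.4 and 12.3 in WT and 13.9 and 15.2 in ApoeKO.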

How the data were processed

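Total RNA of whole corneas was extracted with RNeasy columns and 100 ng were labelled by the Affymetrix procedure, per the labels' protocols. The deposited probe-set values are intensity on a linear scale, brought by the authors to one common level per array. That level is a mean of 100 once the top and bottom 2% are trimmed. The software was not given in the sources used here, and detection calls were not used. Of 45101 probe sets, 34958 carry 1 symbol in the platform table, 932 several and 9211 none, and the brightest of those with 1 symbol stood for each of 18194 genes. Values were transformed to log2(intensity + 3.6), with a pseudocount of 3.6, the 20th percentile over all arrays. Testing kept genes if their mean over the 12 arrays reached the 40th percentile of the probe-set means, 12711 in all. Limma 3.58.1 in R 4.3.3 was fitted to the 8 intact arrays with 1 coefficient per genotype and a trend with intensity, and Benjamini-Hochberg adjusted p-values were read at 0.05. The fit was run on simulated data in which each gene had the same spread in all groups. The unequal spread of the real groups was not simulated. Figures were drawn with matplotlib 3.10.9.

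The comparison and the gene lists were chosen with earlier results of these data known. Named by rule were Apoe, Apoc1 and Rcan1, the 5 lowest p, up to 2 genes of lowest p per described list, and the 8 genes furthest apart in each direction between the ApoeKO arrays with the higher array above the 60th percentile. Clone and predicted-gene symbols were not named. Other members of the lists are named to account for them, and 17 genes were picked after their values were seen. Alternatives were a stricter filter (60th percentile, 9867 genes) and none, quantile normalization, pseudocounts of 0.6 and 8.7, no trend, only the 4 arrays, a replicate block, every probe set, a term for Xist, and arrays left out. Replicate numbers did not pair the arrays, so the fit had no block.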

Additional observations from a re-analysis of the deposited data

Results flagged for a closer look

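Several of the named genes differed in opposite directions between ApoeKO and WT and between double KO and Dscr1KO, with no overlap in either pair of groups. The share of all genes that do so was not counted. The second pair includes Dscr1KO replicate 2, whose labels name both single genotypes. Among all genes tested, 21.1% were higher and 23.7% lower without overlap in the first pair, and 16.4% and 16.1% in the second. Crygf is the one gene for which the difference itself passed (-6.86, limma adjusted p = 0.0199), and it had a difference of 0.30 in the second pair. It read 3.9 or less on all 4 arrays of that pair, near the pseudocount of 3.6, so a fall of that size could not have been seen there, and the test adds nothing to the fall in ApoeKO against WT. For the others the difference between the contrasts did not pass in the same fit. Limma adjusted p was 0.0985 for Csn3, a casein gene (3.02 in ApoeKO against WT and -2.75 in the second pair), for Emb, embigin (-1.76 and 0.75), for Erdr1 (1.33 and -1.38) and for Il33 (2.01 and -0.57). It was 0.305 for Cav1, caveolin-1 (0.81 and -0.35), and Icam1 (1.12 and -0.79), and 0.34 for Fstl1, a secreted glycoprotein gene (-1.15 and 0.42). It was 0.417 for Col4a1 (-1.08 and 0.67), 0.531 for Acss2 (0.57 and -0.92), 0.545 for Nsdhl (0.34 and -0.67), 0.56 for Car2 (-0.86 and 1.27) and 0.599 for Vwf (-0.68 and 0.66). Csn3, Emb, Erdr1, Cav1 and Fstl1 were picked after their values were seen. Car2 and Vwf were below 20 intensity units on all WT and ApoeKO arrays.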

How the results depend on the processing

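The count of genes called in ApoeKO against WT was 3, and between 0 and 203 over the alternatives run. It was 0 with the stricter filter (366 at an unadjusted p under 0.05), under which Crygf was not tested, 1 with the pseudocount of 0.6, 1 without the intensity trend, 1 with a term for Xist and 203 with only the 4 arrays. Leaving out WT replicate 1 gave 0 (225 at an unadjusted p under 0.05), either WT replicate 2 or ApoeKO replicate 2 gave 1, and ApoeKO replicate 1 gave 6. It was 9 without both libraries in doubt (ApoeKO replicate 1 and Dscr1KO replicate 2) and 10 without double KO replicate 1. The call made with the Xist term was Meg3, and the calls without the libraries in doubt included Apoe and Apoc1. Those without double KO replicate 1 included Il33 and the sex-linked genes Xist, Kdm5d, Uty and Eif2s3y. Genes differing between Dscr1 genotypes numbered 1. That count was 0 with the stricter filter, 2 with the replicate block and 0 without both libraries in doubt. With arrays left out it ranged from 0 (any WT or ApoeKO array) to 50 (Dscr1KO replicate 2), with 19 without Dscr1KO replicate 1, 6 without double KO replicate 1 and 15 without double KO replicate 2. The replicate block kept the same 3 calls in ApoeKO against WT. Same-numbered WT and ApoeKO arrays deviated together with r = 0.044 across genes, so the numbers do not pair them. Genes at least 2-fold from the WT mean numbered 457 on ApoeKO replicate 1 (263 with the pseudocount of 8.7) and 385 on replicate 2 (605 with the pseudocount of 0.6 and 208 with 8.7). Over 59 named genes and 939 alternative fits, 879 kept direction and side of the threshold, 16 lost the call, 43 gained it and 1 changed sign, Rcan1, between -0.138 and 0.062 (without ApoeKO replicate 2) with arrays left out. The cause of these shifts was not tested. With 2 arrays a group, dim genes and small differences are beyond what the arrays resolve.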

Other observations

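Further genes, picked after their values were seen, separated the 4 arrays with close replicates, though none passed over the 8 arrays. Klra8, an activating receptor of natural killer cells, read 33.5 and 29.3 in WT and 636.8 and 652.2 in ApoeKO (4.21 ± 0.79, limma adjusted p = 0.328 over 8 arrays and 3.02e-06 over the 4 alone). It lies in a family of near-identical genes, so which member was read is uncertain. Cdkn2a, a cell cycle inhibitor locus, read 5 and 4.3 in WT and 40.3 and 39.7 in ApoeKO (limma adjusted p = 0.109). Mndal, an interferon-inducible gene, read 59.7 and 46.7 in WT and 205.7 and 244.8 in ApoeKO (limma adjusted p = 0.109). Tfrc, the transferrin receptor, read 148.9 and 102.1 in WT and 421.2 and 599.4 in ApoeKO (limma adjusted p = 0.123). All 4 genes were higher on both ApoeKO arrays.

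Rtp4 and Cmpk2, interferon-induced genes outside the list, read 151.4 and 152.5 and 9.4 and 11.4 in WT, against 490 and 870.7 and 36 and 54.8 in ApoeKO. Spink5, a protease inhibitor of stratified epithelia, read 115.9 and 102.8 in WT and 353.9 and 496.3 in ApoeKO, and Sprr1a, an envelope protein gene, read 60.5 and 62.5 in WT and 280.8 and 207.2 in ApoeKO. Chil1, a chitinase-like protein gene, read 25.2 and 4.9 in WT and 278.3 and 48.4 in ApoeKO, with replicate 1 the higher.

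Lower on both ApoeKO arrays were Camk4, a calcium-dependent kinase gene (82.8 and 52.5 in WT, 9 and 13.5 in ApoeKO, limma adjusted p = 0.131), and Mfap4, a microfibril protein gene (321.9 and 240.5 in WT, 90 and 93.9 in ApoeKO, limma adjusted p = 0.147). Meg3, an imprinted long noncoding RNA, read 786.9 and 727.2 in WT and 147 and 171.6 in ApoeKO (-2.23 ± 0.52, limma adjusted p = 0.541). With a term for Xist in the fit it was the only gene called (-4.18, limma adjusted p = 0.0228). The double KO arrays alone set that term, so it cannot separate sex from the Apoe label.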
